A study of Pistacia vera with 20 samples.

Results

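The gibberellin genes of the pistachio hull were followed here: the enzymes that make and inactivate the hormone, its receptors, the DELLA repressors and their partners, and the proteins that gibberellin is known to regulate. A gene was taken when its deposited description held the gibberellin-regulated protein domain PF02704, the words gibberellin, DELLA protein, ent-kaurene or ent-kaurenoic, or GAI as a word of its own, and terpene synthases (PF01397 or PF03936) were left out. This gave 57 of 39783 genes, on 16 contigs of an assembly that the sources used here do not name. The choice rested on descriptions and not on expression.

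Gibberellins are plant hormones that promote cell expansion, stem growth, germination and fruit growth. Ent-kaurene oxidase and ent-kaurenoic acid oxidase, both cytochrome P450 enzymes, carry the precursor to the first gibberellin, GA20-oxidases and GA3-oxidases turn it into bioactive forms, and GA2-oxidases inactivate these. The hormone binds the soluble receptor GID1, which then binds DELLA proteins, nuclear repressors of growth, and sends them to degradation through an F-box protein (SLEEPY1 in Arabidopsis, GID2 in rice). GASA proteins, also called snakins, are small secreted peptides rich in cysteine, and many of their genes respond to gibberellin in other plants.

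RNA sequencing of polyadenylated RNA was done on whole hulls (exocarp and mesocarp, the fleshy layers around the shell) of Pistacia vera trees in a commercial orchard. At 133 days (d) post anthesis there were tattered and intact hulls of the cultivar Golden Hills, and cracked and intact hulls of the cultivar Lost Hills (3 libraries in each group), and at 91 d there were intact hulls of both cultivars (4 libraries in each group). The labels name no treatment, and do not say whether the replicates came from separate trees, so p-values measure the spread between these libraries. Tattering was sampled only in Golden Hills and cracking only in Lost Hills, so cultivar and kind of split cannot be told apart.

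Expression is given as FPKM, a fragment count set against the length of the gene and the size of the library, and the reads behind each value could be recovered (16116971 to 18609861 per library). At the median gene length, 1 FPKM stood for 15.4 to 19.9 reads. A library labelled with one cultivar at 91 d could hold transcripts of the other: all 14 genes marking Golden Hills were above 3 reads in replicate 2 of Lost Hills, at a median of 36.9% of their own level. All 12 marking Lost Hills were above it in replicate 2 of Golden Hills, at 27.1%. In replicate 3 of Golden Hills 11 of 12 were above it, at 9.15%, and in the other 91 d libraries the medians were at most 1.18%. Results that rest on 91 d are therefore also given without both replicate 2 libraries where that changed a call. As whole-hull RNA was measured, fewer cells of a type and less RNA per cell cannot be told apart. Seed genes (oleosins and storage proteins), which should be low in hull, had all but 1 of 25 with a read, but the highest averaged 20.8 FPKM. A list meant to mark the epidermis held 3-ketoacyl-CoA synthase and ECERIFERUM genes, and no cutin synthase. It had 12 of 23 genes at 1 FPKM in at least 3 libraries. The highest ECERIFERUM gene averaged 0.579 FPKM, so sums of this list rest on the synthases.

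Of the 57 genes, 49 had a read in at least 1 library and 33 passed the filter of 1 FPKM in at least 3 libraries, the rest being too low to test. All 5 GID1 receptors, 4 of 5 DELLA genes and 11 of 14 GASA genes were tested, against 4 of 9 GA2-oxidase, 1 of 5 GA20-oxidase and 0 of 5 GA3-oxidase genes. Hormone synthesis was thus represented by few transcripts at its last steps. Where genes of 1 kind lay side by side they were mostly silent: the GA20-oxidase pair evm_TU_ptg000001l_3400 and evm_TU_ptg000001l_3401 (10634 bases apart) had no read, and of the 3 neighbouring GA3-oxidase genes evm_TU_ptg000021l_849, evm_TU_ptg000021l_850 and evm_TU_ptg000021l_851 the last 2 had none. How reads shared between similar genes were counted is not stated, so values of close copies are uncertain, and so is the strand used in counting.

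Each difference was tested with limma on log2(FPKM + 1) over all 20 libraries, with Benjamini-Hochberg adjustment over the 19716 genes tested, and genes with an adjusted p under 0.05 are termed called. Fold changes below are log2 differences on that scale, which understates the change of genes of low expression. With age, 11 gibberellin genes rose and 6 fell in intact Golden Hills (133 d over 91 d), where 23.2% of all genes tested rose and 22.1% fell. In intact Lost Hills 10 rose and 4 fell with age, against backgrounds of 16.0% and 15.7%. The balance of directions in Golden Hills depended on the scaling. With TPM 9 gibberellin genes rose and 9 fell there, against 16.6% and 31.1% of all genes, and with library totals 9 rose and 7 fell, against 16.7% and 31.0%. Of the calls with the deposited scaling 11 were shared by the cultivars, 8 higher and 3 lower. That is 64.7% of the Golden Hills and 78.6% of the Lost Hills calls. The same share was not counted over all genes, so it is not read as particular to the gibberellin genes. The median log2 fold change of the 33 genes was 0.24 in Golden Hills and 0.076 in Lost Hills, against -0.025 and 8.0e-05 over all genes. The ages did not overlap for 48.5% of the 33 genes in each cultivar. Over all genes tested this held for 45.8% in Golden Hills and 40.2% in Lost Hills.

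In tattered over intact Golden Hills 5 of the 33 genes rose and 4 fell, where 9.29% of all genes rose and 7.35% fell. With TPM 4 rose and 7 fell (5.40% and 15.2% of all genes), with library totals 4 and 5 (7.21% and 9.16%), and with quantile normalization 4 and 4 (5.85% and 9.45%). In cracked over intact Lost Hills 3 rose, against a background of 1.48%, and 0 fell by limma, against 0.0812%. At an unadjusted p under 0.05 there were 7 of the 33 gibberellin genes in cracked hulls, and 1730 of all 19716 genes tested. When the fit held only the 2 groups compared, 0 gibberellin genes were called, where 4 of all 19716 genes tested were. The median log2 fold change was 0.28 for tattered and -0.082 for cracked hulls, against 0.013 and -0.0070 over all genes. The 3 genes called in cracked hulls, all GASA genes, were also called higher in tattered hulls, where they made up 33.3% of the calls. Of these, gibberellin-regulated protein 4 was tested only through the split hulls. How many of all genes were called in both was not counted, so no conclusion is drawn from this sharing.

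Between the cultivars, intact Golden Hills over intact Lost Hills, 5 genes were higher and 5 lower at 133 d, with 8.88% and 7.91% of all genes. With TPM 4 were higher and 5 lower (6.09% and 12.2% of all genes), and with library totals 4 and 6 (5.96% and 12.8%). At 91 d limma called 0 higher and 0 lower (2.55% and 2.56% of all genes), and limma's voom on recovered reads called 1. At an unadjusted p under 0.05 there were 5 of the 33 genes, and 3279 of all 19716 genes tested. Without both replicate 2 libraries 1 was higher and 2 were lower, with 2.90% and 2.76% of all genes. The difference between the age effects of the cultivars (Golden Hills minus Lost Hills) passed for 2 genes, both positive, with 2.05% of all genes positive and 1.24% negative. With TPM both were called positive, against 1.47% and 2.37% of all genes, and with library totals 1 was, against 1.51% and 2.19%. The difference between the split effects (tattering minus cracking) passed for 0 genes by limma. Of all genes 0.771% were positive and 0.223% negative (0.538% and 0.533% with TPM, again with 0 gibberellin genes). At an unadjusted p under 0.05 this difference held 8 of the 33 genes, and 2804 of all 19716 genes tested. So 25 of the 33 genes were called in at least 1 of the 6 comparisons between pairs of groups and 8 in none. The same share was not counted over all genes, so this count is not read as particular to the gibberellin genes. The intact 133 d libraries serve in the split, age and cultivar comparisons alike, so these comparisons are not independent.

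**Figure D1:**
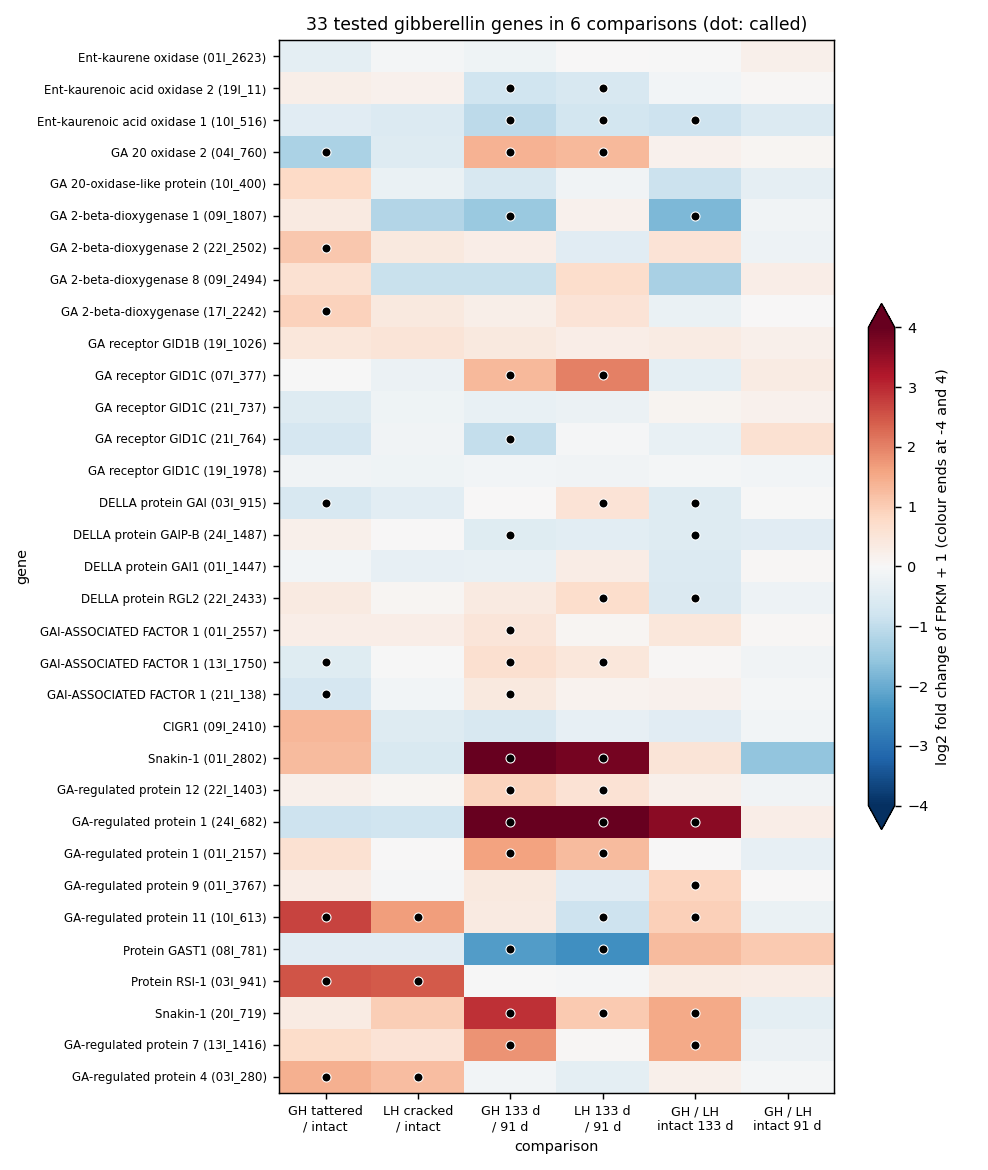
Log2 fold changes (FPKM + 1) of the 33 tested gibberellin genes (rows, with the last part of the gene identifier) in 6 comparisons (columns; GH Golden Hills, LH Lost Hills, first-named group over the second); red is higher, blue lower, and dots mark the called genes. The age columns hold 17 and 14 dots, the tattered column 9, the cracked column 3 and the 91 d cultivar column 0.

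The single ent-kaurene oxidase gene, evm_TU_ptg000001l_2623, varied little. It had 22.5, 17.3 and 17.2 FPKM in tattered hulls, against 25.6, 25.5 and 24.1 FPKM in intact Golden Hills at 133 d, and it was called in none of the 6 pair comparisons. Its tattered values lay below all intact ones, with a log2 fold change of -0.39 (SE 0.14, adjusted p = 0.0552). That difference passed when expression was scaled to TPM (-0.57, adjusted p = 0.00918) or to library totals (-0.45, adjusted p = 0.0443), and without replicate 1 of the tattered group (-0.51, adjusted p = 0.0245).

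Both expressed ent-kaurenoic acid oxidase genes, which act at the next step, fell with age in both cultivars. The gene evm_TU_ptg000019l_11 (contig ptg000019l, 200903 to 204245), matched to Arabidopsis ent-kaurenoic acid oxidase 2, had 12.2, 17.6 and 17.4 FPKM in intact Golden Hills at 133 d, against 31.7, 27.5, 28.2 and 24.6 FPKM at 91 d. In intact Lost Hills it had 16.9, 15.7 and 18.4 FPKM at 133 d, against 26.7, 26.7, 24.5 and 29.4 FPKM at 91 d. Every 133 d library was below every 91 d library of its cultivar, with log2 fold changes of -0.81 (SE 0.15, adjusted p = 0.000393) in Golden Hills and -0.63 (SE 0.15, adjusted p = 0.00502) in Lost Hills.

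The gene evm_TU_ptg000010l_516 (contig ptg000010l, 10793756 to 10796572), matched to ent-kaurenoic acid oxidase 1, was lower overall and separated the cultivars too. It had 2.42, 2.15 and 2.09 FPKM in intact Golden Hills at 133 d, against 4.98, 6.16, 5.19 and 6.09 FPKM at 91 d. In intact Lost Hills it had 4.39, 4.72 and 5.19 FPKM at 133 d, against 9.01, 6.78, 10.7 and 8.43 FPKM at 91 d. It fell with age by 1.03 (SE 0.17, adjusted p = 0.000127) in Golden Hills and by 0.74 (SE 0.17, adjusted p = 0.00369) in Lost Hills on the log2 scale, with no overlap between the ages in either. Golden Hills was below Lost Hills in intact hulls at 133 d by a log2 fold change of -0.84 (SE 0.19, adjusted p = 0.00497). At 91 d this gene was called lower in Golden Hills only without Lost Hills replicate 2 (-0.65, adjusted p = 0.0289), without both replicate 2 libraries (-0.69, adjusted p = 0.036) or by voom (-0.62, adjusted p = 0.0331). Its neighbour evm_TU_ptg000010l_515, 3488 bases away and on the same strand, had no read.

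Of the GA20-oxidase genes, which catalyse the steps that usually limit gibberellin output, only evm_TU_ptg000004l_760 (contig ptg000004l, 11055656 to 11057583) passed the filter, and did so at low levels. Of its 5 libraries at 1 FPKM or more, 4 were intact ones of 133 d, so it was tested only through the groups where it was high. Its calls, which are part of the counts above, therefore add no support. It had 0.225, 0.252 and 0.0771 FPKM in tattered hulls, against 0.638, 2.12 and 3.53 FPKM in intact Golden Hills at 133 d and 0.0303, 0, 0.121 and 0.164 FPKM at 91 d. In Lost Hills it had 1.37, 0.740 and 0.356 FPKM in cracked hulls, against 0.855, 2.79 and 1.3 FPKM in intact hulls at 133 d and 0.0678, 0, 0 and 0.0317 FPKM at 91 d. Intact hulls at 133 d thus had the highest group mean in both cultivars. Every tattered library lay below them, while 1 cracked library lay above 2 of the 3 intact Lost Hills libraries. The GA20-oxidase gene evm_TU_ptg000019l_279, too low to test, had 1 read in intact Golden Hills at 133 d, against 15 reads at 91 d. Its intact Lost Hills libraries held 0 reads at 133 d, against 15 reads at 91 d.

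This GA20-oxidase gene fell in tattered hulls by 1.27 on the log2 scale (SE 0.30, adjusted p = 0.00802), a call that was lost with only the groups compared (adjusted p = 0.0709). With age it rose by 1.40 in Golden Hills (SE 0.28, adjusted p = 0.000508) and by 1.3 in Lost Hills (SE 0.28, adjusted p = 0.00179). In Lost Hills the age change rested on 150 reads at 133 d and 3 reads at 91 d, a ratio of 67.9 after scaling, with an exact 95% interval of 22.8 to 333 that covers counting error only. In cracked over intact Lost Hills the groups overlapped (log2 fold change -0.51, SE 0.30, adjusted p = 0.733), and the difference between the split effects was -0.76 (SE 0.42, adjusted p = 0.423).

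The GA20-oxidase-like gene with most reads, evm_TU_ptg000010l_400, averaged 8.46 FPKM over the 20 libraries, with a lowest value of 2.67 FPKM in intact Golden Hills at 133 d and a highest of 15.5 FPKM in intact Lost Hills at 133 d, and was called in no comparison. None of the GA3-oxidase genes, the enzymes of the last activating step, reached the filter. The highest of them, evm_TU_ptg000001l_1779, had 0.433, 0.491 and 6.17 FPKM in cracked hulls, against 0.322, 0.0569 and 0.0550 FPKM in intact Lost Hills at 133 d. Its value in replicate 3 of the cracked group stood alone, since all the other libraries were below 1 FPKM.

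Among the GA2-oxidase genes, whose products inactivate the hormone, 1 predominated. The GA2-oxidase evm_TU_ptg000009l_1807 (contig ptg000009l, 24010417 to 24011857), matched to pea gibberellin 2-beta-dioxygenase 1, averaged 75.9 FPKM, while the next of the 9 GA2-oxidases averaged 1.38 FPKM. It had 39.7, 38.8 and 39.7 FPKM in tattered hulls, against 26.1, 19.3 and 55.0 FPKM in intact Golden Hills at 133 d and 123, 57.2, 66.5 and 117 FPKM at 91 d. In Lost Hills it had 55.9, 60.6 and 31.6 FPKM in cracked hulls, against 131, 105 and 91.9 FPKM in intact hulls at 133 d and 207, 38.1, 137 and 76.7 FPKM at 91 d.

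Intact Golden Hills at 133 d was below every intact Lost Hills library of that age and below every younger Golden Hills library. The log2 fold change of this GA2-oxidase was -1.80 between the cultivars (SE 0.48, adjusted p = 0.0157), and the call was lost without replicate 1 (-1.70) or 2 (-1.48) of Golden Hills or replicate 1 of Lost Hills (-1.66). With age it was -1.48 in Golden Hills (SE 0.45, adjusted p = 0.0125), lost without replicate 2 at 133 d (-1.16). It was 0.17 in Lost Hills (SE 0.45, adjusted p = 0.802), where the sign turned without replicate 2 of 91 d (-0.26). The difference between the age effects, -1.65, had an adjusted p of 0.171. All cracked values lay below the intact Lost Hills ones, but the log2 fold change of -1.17 (SE 0.48) had an adjusted p of 0.422.

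A pair of low GA2-oxidase genes rose in tattered hulls. The gene evm_TU_ptg000022l_2502, matched to gibberellin 2-beta-dioxygenase 2, had 3.89, 3.35 and 3.89 FPKM in tattered hulls, against 0.946, 1.67 and 1.09 FPKM in intact Golden Hills at 133 d, and was at most 1.82 FPKM in any other library. Its log2 fold change was 1.09 (SE 0.23, adjusted p = 0.00359). The gene evm_TU_ptg000017l_2242 had 0.999, 2.52 and 3.08 FPKM in tattered hulls, against 0.313, 1.06 and 0.606 FPKM in intact hulls, so the groups overlapped. Its log2 fold change of 0.91 (SE 0.30, adjusted p = 0.0482) was no longer called without replicate 1 (0.75) or 3 (0.90) of the intact group, without replicate 2 (0.81) or 3 (0.70) of the tattered group, or under 8 other settings, among them TPM (0.96, adjusted p = 0.095) and voom on recovered reads (1.69, adjusted p = 0.124).

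**Figure D2:**
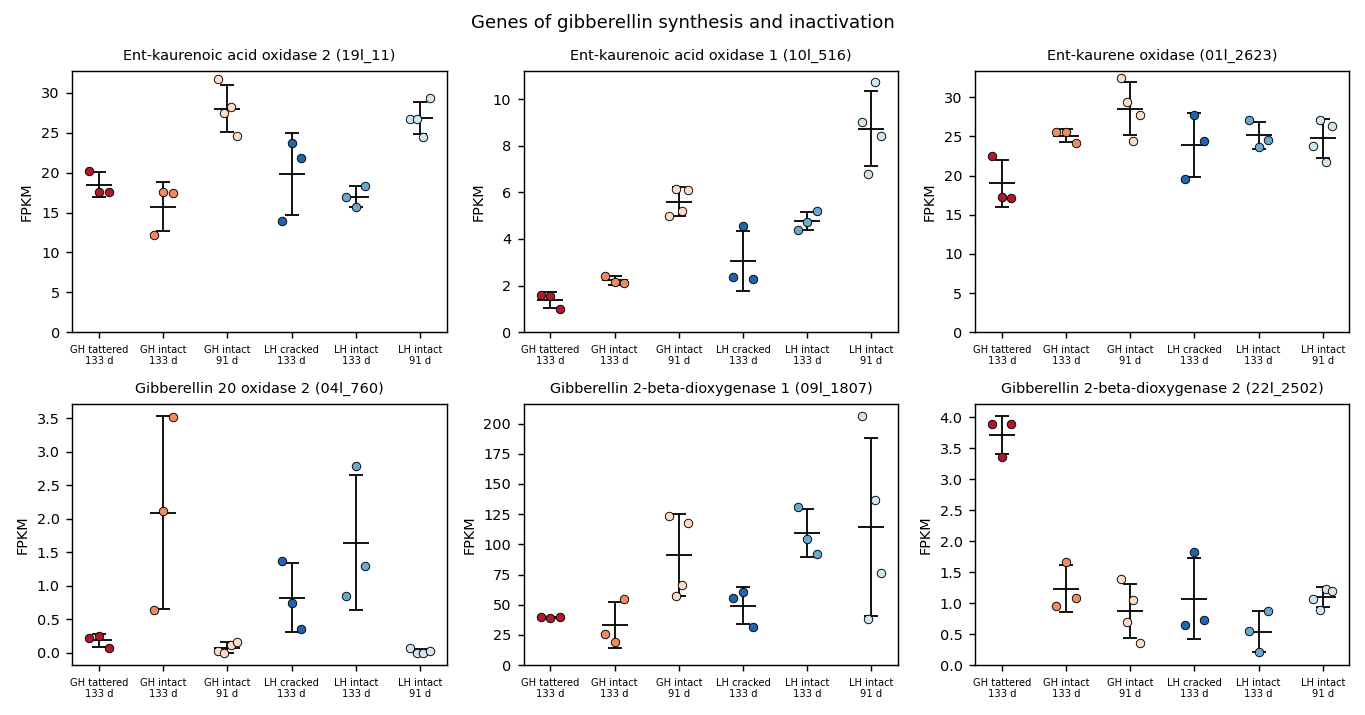
FPKM of 6 genes of gibberellin synthesis and inactivation in each library (points) with the mean and SD of each group (bars); GH is Golden Hills, LH Lost Hills. Both ent-kaurenoic acid oxidase genes are lower at 133 d than at 91 d in intact hulls, GA20-oxidase 2 has its highest group means in intact hulls at 133 d, and gibberellin 2-beta-dioxygenase 2 stands at 3.35 FPKM or more only in tattered hulls.

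The receptor genes were expressed in every library. GID1B (evm_TU_ptg000019l_1026) averaged 60.3 FPKM and was called in no comparison. It had 78.4, 92.8 and 93.1 FPKM in tattered hulls, against 77.7, 57.7 and 57.5 FPKM in intact Golden Hills at 133 d. Though all tattered values lay above the intact ones, 2 of the libraries nearly met, and the log2 fold change of 0.46 (SE 0.27) had an adjusted p of 0.265.

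The GID1C gene evm_TU_ptg000007l_377 (contig ptg000007l, 3292930 to 3296065) rose with age in both cultivars. It had 31.8, 56.4 and 57.3 FPKM in intact Golden Hills at 133 d, against 20.2, 15.6, 14 and 25.3 FPKM at 91 d. In intact Lost Hills it had 66.8, 65.8 and 53.9 FPKM at 133 d, against 12.3, 14.9, 15.8 and 15.3 FPKM at 91 d. No 133 d value met a 91 d value, and the log2 fold changes were 1.31 (SE 0.21, adjusted p = 6.43e-05) and 2.02 (SE 0.21, adjusted p = 2.33e-06). Tattered hulls, with 39.5, 50.9 and 48.7 FPKM, and cracked hulls, with 64.7, 46.8 and 46.9 FPKM, were close to the intact hulls of their cultivar at that age.

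A further 3 genes are matched to Arabidopsis GID1C but carry no domain entry in the deposited table, unlike the 2 above, which hold the alpha/beta hydrolase domain PF07859. Of these, evm_TU_ptg000021l_737 and evm_TU_ptg000021l_764 are only 345 bases long and lie on the same contig, so reads of 1 may have been counted to the other. The gene evm_TU_ptg000021l_764 had 8.96, 6.84 and 5.61 FPKM in intact Golden Hills at 133 d, against 20.2, 14.2, 14 and 11.1 FPKM at 91 d. It fell with age there by 0.96 on the log2 scale (SE 0.28, adjusted p = 0.0107), a call that was lost without replicate 3 of 133 d (-0.82, adjusted p = 0.0551).

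The DELLA genes were classed by their matched names. RGL2 (evm_TU_ptg000022l_2433) and the untested evm_TU_ptg000019l_796 hold only the GRAS domain PF03514. The other DELLA genes hold PF12041 as well, so the class of these genes is less certain for RGL2. Among the DELLA genes the largest log2 fold change called was 0.71, for RGL2. The gene with the highest level, evm_TU_ptg000003l_915 (contig ptg000003l, 15313404 to 15316064), matched to the DELLA protein GAI, had 9.18, 9 and 12.6 FPKM in tattered hulls, against 12.2, 17.5 and 19.8 FPKM in intact Golden Hills at 133 d and 18.8, 16.7, 15.2 and 13.5 FPKM at 91 d. In Lost Hills it had 18.4, 17.6 and 16.3 FPKM in cracked hulls, against 23.2, 26.7 and 21.6 FPKM in intact hulls at 133 d and 18.2, 17.2, 13.4 and 15.5 FPKM at 91 d. Both kinds of split hull were low beside the intact hulls of their age, with 1 overlapping library in Golden Hills and none in Lost Hills.

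In tattered hulls GAI fell by 0.63 (SE 0.17, adjusted p = 0.0175), which was not called without replicate 2 (-0.57) or 3 (-0.49) of the intact group, without replicate 1 (-0.56) or 2 (-0.55) of the tattered group, or with only the groups compared (adjusted p = 0.117). In cracked hulls the log2 fold change was -0.42 (SE 0.17, adjusted p = 0.382). The DELLA genes GAIP-B (evm_TU_ptg000024l_1487) and RGL2 (evm_TU_ptg000022l_2433) lay the other way in tattered hulls, above the intact ones without overlap. GAIP-B had 10.9, 10.7 and 12.7 FPKM in tattered hulls, against 9.44, 9.07 and 10.6 FPKM in intact Golden Hills at 133 d (log2 fold change 0.22, SE 0.17, adjusted p = 0.426). RGL2 had 1.76, 1.57 and 1.59 FPKM in tattered hulls, against 1.04, 1.10 and 1.04 FPKM in intact hulls (0.35, SE 0.16, adjusted p = 0.134). Cracked and intact Lost Hills overlapped for both. With age GAI rose in Lost Hills by 0.54 (SE 0.16, adjusted p = 0.014), lost without replicate 2 of 133 d (0.46). The difference between the age effects was -0.52 (SE 0.22, adjusted p = 0.217).

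At 133 d all 4 tested DELLA genes were lower in intact Golden Hills than in intact Lost Hills without overlap, and 3 of them were called. RGL2, 1 of the called genes, holds no PF12041 entry and is a DELLA gene by its matched name only. The uncalled gene, GAI1 (evm_TU_ptg000001l_1447), had 1.35 to 1.76 FPKM in Golden Hills, against 2.47 to 3.06 FPKM in Lost Hills. Over all genes tested 7.91% were called lower and 33.7% had groups that did not overlap. Of the 25 tested genes outside the 57 with the GRAS domain, which DELLA proteins share, 6 were called lower and 1 higher. The log2 fold changes were -0.53 for GAI (SE 0.17, adjusted p = 0.0395), -0.52 for GAIP-B (SE 0.17, adjusted p = 0.046) and -0.57 for RGL2 (SE 0.16, adjusted p = 0.0193). GAIP-B had 9.44, 9.07 and 10.6 FPKM in Golden Hills, against 16.9, 11.9 and 14.6 FPKM in Lost Hills. RGL2 had 1.04, 1.10 and 1.04 FPKM in Golden Hills, against 1.41, 2.84 and 2.09 FPKM in Lost Hills. GAI was not called without replicate 1 (-0.33) or 2 (-0.58) of Golden Hills or replicate 1 (-0.54), 2 (-0.45) or 3 (-0.59) of Lost Hills. GAIP-B was not called without replicate 1 (-0.50), 2 (-0.48) or 3 (-0.58) of Golden Hills or replicate 1 (-0.41) or 3 (-0.51) of Lost Hills. RGL2 was not called without replicate 3 of Golden Hills (-0.56) or replicate 2 (-0.41) or 3 (-0.56) of Lost Hills. All 3 calls were lost with only the groups compared (adjusted p = 0.147, 0.0963 and 0.128 for GAI, GAIP-B and RGL2). Those of GAI and GAIP-B were also lost without both replicate 2 libraries of 91 d, which enter the pooled spread (adjusted p = 0.0578 and 0.0637).

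With age RGL2 rose in Lost Hills, where it had 1.41, 2.84 and 2.09 FPKM at 133 d, against 0.637, 0.758, 1.07 and 1.07 FPKM at 91 d, a log2 fold change of 0.71 (SE 0.15, adjusted p = 0.00155). GAIP-B fell with age in Golden Hills, with the 133 d values above against 13.5, 15.8, 16.4 and 11.1 FPKM at 91 d. Its log2 fold change of -0.49 (SE 0.16, adjusted p = 0.0187) was not called without replicate 2 (-0.44) or 3 (-0.42) of 91 d, without both replicate 2 libraries (-0.44, adjusted p = 0.0637), or without replicate 2 of 133 d (-0.45). The fifth DELLA gene, evm_TU_ptg000019l_796, was at most 0.141 FPKM in any library and was not tested.

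GAI-ASSOCIATED FACTOR 1 is an Arabidopsis zinc finger protein that binds DELLA proteins and with them activates transcription. Of its 4 matches the one on contig ptg000013l, evm_TU_ptg000013l_1750, rose with age in both cultivars, and fell in tattered hulls. It had 31.4, 37.8 and 41.9 FPKM in tattered hulls, against 44.4, 52.3 and 61.0 FPKM in intact Golden Hills at 133 d and 36.4, 35.4, 28.3 and 33.1 FPKM at 91 d. In intact Lost Hills it had 49.8, 53.0 and 48.3 FPKM at 133 d, against 35.4, 39.2, 35.7 and 34.8 FPKM at 91 d. Intact hulls at 133 d were above the other 2 groups in Golden Hills without overlap, and above 91 d in Lost Hills.

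The log2 fold changes of evm_TU_ptg000013l_1750 with age were 0.64 (SE 0.11, adjusted p = 0.000212) in Golden Hills and 0.46 (SE 0.11, adjusted p = 0.0051) in Lost Hills. In tattered hulls it fell by 0.49 (SE 0.12, adjusted p = 0.0114), a call lost without replicate 3 of the intact group (-0.38), without replicate 1 of the tattered group (-0.38) or with only the groups compared (adjusted p = 0.1). A second match, evm_TU_ptg000021l_138, had 16.0, 18.7 and 20.2 FPKM in tattered hulls, against 30.4, 25.8 and 33.4 FPKM in intact hulls, and fell by 0.68 (SE 0.15, adjusted p = 0.00712), with no overlap. Its rise with age in Golden Hills, 0.39 (SE 0.14, adjusted p = 0.0378), was lost with TPM (0.22, adjusted p = 0.214) or library totals (0.22, adjusted p = 0.197), without both replicate 2 libraries (0.37, adjusted p = 0.0895), without replicate 2 (0.37), 3 (0.33) or 4 (0.39) of 91 d, and without replicate 1 (0.37) or 3 (0.30) of 133 d.

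The third match, evm_TU_ptg000001l_2557, had the highest level of the 4, with a mean of 55.4 FPKM. Its rise with age in Golden Hills, 0.48 (SE 0.16, adjusted p = 0.0201), was not called with TPM (0.31, adjusted p = 0.132), library totals (0.31, adjusted p = 0.106) or only the groups compared (adjusted p = 0.0553), without both replicate 2 libraries (0.46, adjusted p = 0.0532) or without replicate 1 of 133 d (0.28). The gene matched to rice CIGR1, evm_TU_ptg000009l_2410, a GRAS-domain protein named for its induction by chitin and gibberellin, differed widely within groups. It had 18.0, 32.0 and 36.3 FPKM in tattered hulls, against 8.74, 14 and 9.23 FPKM in intact Golden Hills at 133 d (log2 fold change 1.32, SE 0.53, adjusted p = 0.0949). Cracked Lost Hills hulls had 21.5, 6.58 and 6.48 FPKM, against 39.1, 8.87 and 8.41 FPKM in intact hulls of 133 d. Replicate 1 was the high library in both Lost Hills groups of that age. The tattered difference passed with only the groups compared (adjusted p = 0.0404).

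**Figure D3:**
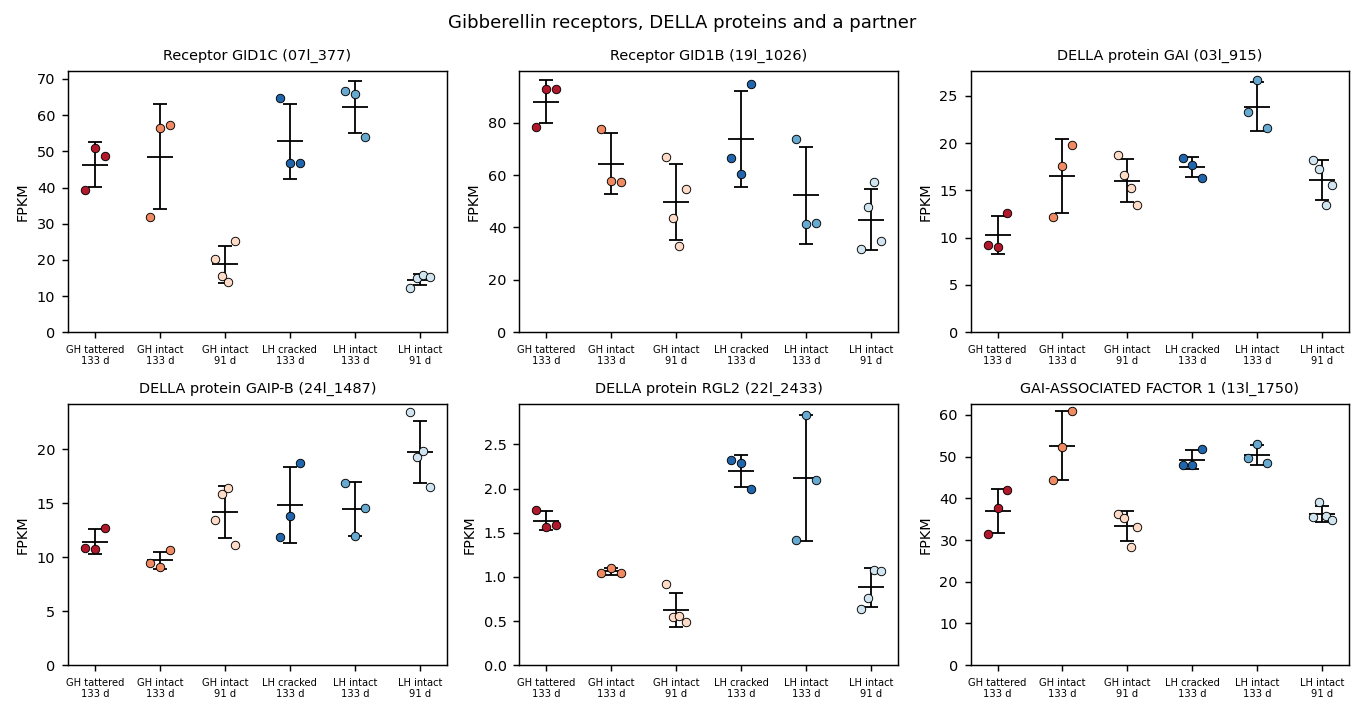
FPKM of 2 receptor genes, 3 DELLA genes and a GAI-ASSOCIATED FACTOR 1 gene in each library (points) with the mean and SD of each group (bars); GH is Golden Hills, LH Lost Hills. GID1C is higher at 133 d than at 91 d in both cultivars, and the 3 DELLA genes are lower in intact Golden Hills than in intact Lost Hills at 133 d.

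The GASA genes had a higher summed level than any other class of the 57 genes in each of the 6 groups. Their summed level was 2992 to 3484 FPKM in tattered hulls, 2160 to 2693 FPKM in intact Golden Hills at 133 d and 301 to 386 FPKM at 91 d. In Lost Hills it was 767 to 1608 FPKM in cracked hulls, 939 to 1436 FPKM in intact hulls at 133 d and 337 to 495 FPKM at 91 d. The 4 genes with the highest means made up 80.1% to 98.1% of this sum (median 94.4%). All 4 rose with age in both cultivars.

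Snakin-1 is a potato peptide known for its action against microbes, and its match evm_TU_ptg000001l_2802 (contig ptg000001l, 37236026 to 37236776) had the highest mean of all 57 genes, 546 FPKM. It had 1790, 1920 and 1679 FPKM in tattered hulls, against 916, 659 and 677 FPKM in intact Golden Hills at 133 d and 14.1, 11.5, 13.4 and 7.22 FPKM at 91 d. In Lost Hills it had 896, 242 and 187 FPKM in cracked hulls, against 403, 840 and 416 FPKM in intact hulls at 133 d and 36.3, 6.98, 170 and 33.3 FPKM at 91 d. The ages did not overlap in either cultivar, and the lowest Lost Hills value at 91 d was that of replicate 2, which also held Golden Hills transcripts.

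With age this Snakin-1 gene rose by 5.92 on the log2 scale in Golden Hills (SE 0.69, adjusted p = 2.61e-06) and by 3.84 in Lost Hills (SE 0.69, adjusted p = 0.000428). The difference between these, 2.08 (SE 0.97), had an adjusted p of 0.26. In tattered over intact hulls the groups did not overlap, but the log2 fold change of 1.27 (SE 0.73) had an adjusted p of 0.254 with the spread pooled over all 6 groups, and of 0.012 with only the groups compared. In cracked hulls it was -0.60 (SE 0.73, adjusted p = 0.955), replicate 1 lying above and the others below the intact libraries. The difference between the split effects was 1.87 (SE 1.04, adjusted p = 0.426). At 91 d the log2 fold change of Golden Hills over Lost Hills was -1.57 (SE 0.63, adjusted p = 0.197). Without Lost Hills replicate 2 it was called (-2.30, adjusted p = 0.0131), as it was without both replicate 2 libraries (-2.31, adjusted p = 0.0256).

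The gene evm_TU_ptg000024l_682 (contig ptg000024l, 6731407 to 6732141), matched to Arabidopsis gibberellin-regulated protein 1, had the largest age change of the 33 and the largest cultivar difference. It had 430, 699 and 619 FPKM in tattered hulls, against 1005, 973 and 1087 FPKM in intact Golden Hills at 133 d and 2.62, 0.767, 0.208 and 2.04 FPKM at 91 d. Cracked Lost Hills hulls had 126, 26.0 and 31.8 FPKM, against 45.9, 87.7 and 142 FPKM in intact hulls at 133 d and 0.585, 0.206, 2.48 and 0.766 FPKM at 91 d. All libraries of 91 d were at or below 2.62 FPKM, while at 133 d the lowest intact Golden Hills library lay far above the highest Lost Hills library.

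Its log2 fold change with age was 8.86 in Golden Hills (SE 0.50, adjusted p = 1.3e-09) and 5.51 in Lost Hills (SE 0.50, adjusted p = 7.17e-07). The difference between the age effects, 3.35 (SE 0.71), had an adjusted p of 0.0143, and was not called with a pseudocount of 0.1 (3.18, adjusted p = 0.102) or by voom (3.16, adjusted p = 0.347). Between the cultivars at 133 d the log2 fold change was 3.60 (SE 0.53, adjusted p = 0.000176), called under each alternative run. Tattered hulls were below the intact ones without overlap, at a log2 fold change of -0.84 (SE 0.53, adjusted p = 0.305), and the cracked and intact groups overlapped (-0.80, SE 0.53, adjusted p = 0.81).

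The other 2 of the 4 highest GASA genes varied less. The gene evm_TU_ptg000022l_1403, matched to gibberellin-regulated protein 12 but without a PF02704 entry, had 423, 368 and 380 FPKM in intact Golden Hills at 133 d, against 252, 211, 188 and 193 FPKM at 91 d. Intact Lost Hills had 341, 339 and 337 FPKM at 133 d, against 209, 224, 218 and 269 FPKM at 91 d. It rose by 0.89 (SE 0.13, adjusted p = 2.37e-05) in Golden Hills and by 0.56 (SE 0.13, adjusted p = 0.00272) in Lost Hills. The gene evm_TU_ptg000001l_2157, also matched to gibberellin-regulated protein 1, had 268, 115 and 104 FPKM in intact Golden Hills at 133 d, against 46.2, 63.3, 39.7 and 43.5 FPKM at 91 d, and rose by 1.62 (SE 0.26, adjusted p = 6.53e-05). In Lost Hills, with 125, 142 and 174 FPKM at 133 d against 61.6, 64.8, 51.9 and 63.5 FPKM at 91 d, it rose by 1.26 (SE 0.26, adjusted p = 0.00126). In none of these 4 contrasts did the ages overlap, a separation that 45.8% of all genes showed in Golden Hills and 40.2% in Lost Hills.

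**Figure D4:**
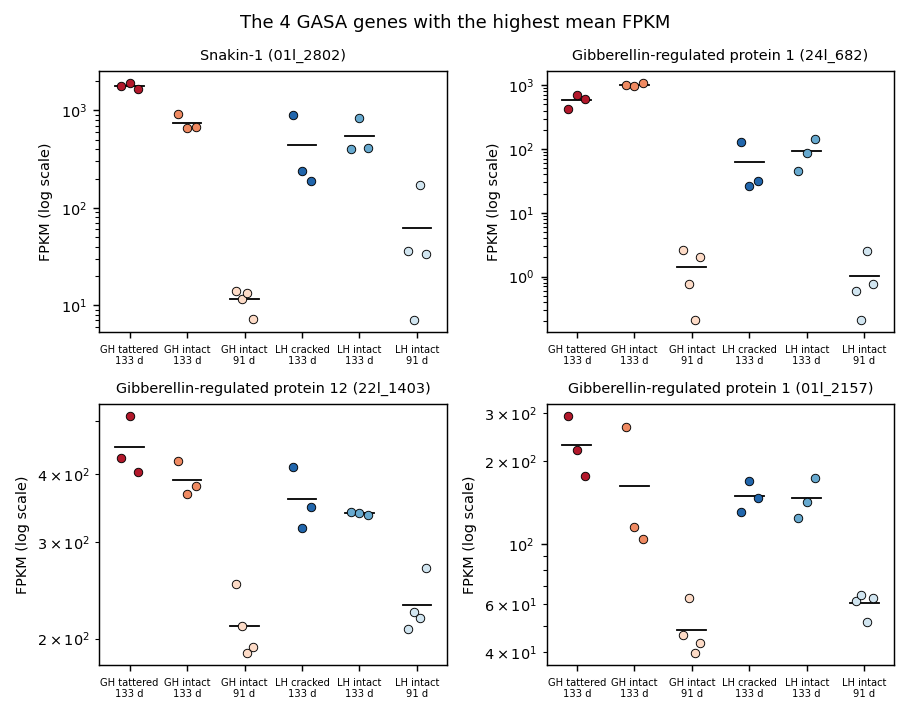
FPKM on a log scale of the 4 GASA genes with the highest means in each library (points), with group means (lines); GH is Golden Hills, LH Lost Hills. All 4 are lower at 91 d than in intact hulls at 133 d, and gibberellin-regulated protein 1 (24l_682) is between 973 and 1087 FPKM in intact Golden Hills at 133 d, against 45.9 to 142 FPKM in intact Lost Hills.

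A GASA gene matched to tomato GAST1, the transcript for which the family was named gibberellin-stimulated, ran the other way. The gene evm_TU_ptg000008l_781 had 8.02, 2.59 and 1.97 FPKM in intact Golden Hills at 133 d, against 24.4, 10.1, 31.0 and 23.7 FPKM at 91 d. Intact Lost Hills had 0.605, 0.642 and 1.65 FPKM at 133 d, against 7.24, 13.2, 14.4 and 5.87 FPKM at 91 d. Its log2 fold change with age was -2.25 (SE 0.40, adjusted p = 0.000221) in Golden Hills and -2.46 (SE 0.40, adjusted p = 0.000205) in Lost Hills, with no overlap. At 91 d it was called higher in Golden Hills than in Lost Hills only without Golden Hills replicate 2 (1.37, adjusted p = 0.0329) or both replicate 2 libraries (1.51, adjusted p = 0.0277).

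Other GASA genes appeared mainly at 133 d in intact Golden Hills. The second Snakin-1 match, evm_TU_ptg000020l_719, had 10.3, 4.53 and 6.72 FPKM in intact Golden Hills at 133 d, against 0.122, 0, 0 and 0 FPKM at 91 d. Intact Lost Hills had 3.81, 0.674 and 1.56 FPKM at 133 d, against 0.408, 0, 0.655 and 0.382 FPKM at 91 d. In Golden Hills this was 146 reads against 1 read, a scaled ratio of 227 with an exact 95% interval of 40.0 to 9009. The fitted rise was 2.93 (SE 0.35, adjusted p = 3.72e-06). In Lost Hills the rise of 1.03 (SE 0.35, adjusted p = 0.032) was not called without replicate 1 (1.06), 2 (0.89) or 4 (1.05) of 91 d, without both replicate 2 libraries (0.89, adjusted p = 0.101), or without replicate 1 (0.63) or 3 (1.08) of 133 d.

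At 133 d Golden Hills was above Lost Hills for this gene by 1.51 (SE 0.37, adjusted p = 0.00994), a call lost without replicate 1 of Golden Hills (1.25) or replicate 2 of Lost Hills (1.16), or with only the groups compared (adjusted p = 0.0799). Its difference between the age effects, 1.89 (SE 0.50, adjusted p = 0.0443), was not called without replicate 1, 2, 3 or 4 of Golden Hills at 91 d (1.94, 1.88, 1.88 and 1.88), replicate 1, 3 or 4 of Lost Hills at 91 d (1.87, 1.79 and 1.88), replicate 1 or 3 of Golden Hills at 133 d (1.63 and 1.91) or replicate 2 or 3 of Lost Hills at 133 d (1.54 and 1.84). It was also lost without both replicate 2 libraries (2.02, adjusted p = 0.0671), by voom (3.88, adjusted p = 0.144), without a filter (1.89, adjusted p = 0.0705) and with library totals (1.80, adjusted p = 0.0598). Gibberellin-regulated protein 7 (evm_TU_ptg000013l_1416) had 0.390, 5.31 and 3.78 FPKM in intact Golden Hills at 133 d and no read in the 4 libraries at 91 d. With 51 reads against a floor of 3 reads over the 91 d group it was at least 26.4-fold higher (adjusted p = 0.000928). In intact Lost Hills this gene averaged 0.274 FPKM at 133 d and 0.214 FPKM at 91 d. The ages overlapped there, with a log2 fold change of 0.043 (SE 0.38, adjusted p = 0.946). At 133 d intact Golden Hills was also above intact Lost Hills, which had 0.822, 0 and 0 FPKM, although the groups overlapped (log2 fold change 1.51, SE 0.41, adjusted p = 0.0165). That call was lost without replicate 2 (1.08) or 3 (1.28) of Golden Hills or replicate 2 (1.36) or 3 (1.36) of Lost Hills, or with only the groups compared (adjusted p = 0.159).

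None of the GASA genes that rose in split hulls was called higher with age, and all 3 were below 10 FPKM in every intact library. Gibberellin-regulated protein 11 (evm_TU_ptg000010l_613; contig ptg000010l, 11761489 to 11763191) had 39.5, 61.2 and 49.9 FPKM in tattered hulls, against 5.54, 5.74 and 9.33 FPKM in intact Golden Hills at 133 d. It had 10.7, 16.2 and 8.95 FPKM in cracked hulls, against 3.62, 2.32 and 3.18 FPKM in intact Lost Hills at 133 d. At 91 d it had 5.78, 3.99, 5.46 and 4.72 FPKM in Golden Hills and 5.61, 4.64, 9.63 and 5.52 FPKM in Lost Hills. The 3 tattered libraries were thus the highest of all 20.

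Protein RSI-1 (evm_TU_ptg000003l_941), matched to a tomato gene first found during lateral root induction, had 17.5, 17.4 and 13.8 FPKM in tattered hulls, against 4.73, 1.64 and 0.797 FPKM in intact hulls. It had 5.95, 12.6 and 21.8 FPKM in cracked hulls, against 0.867, 0.919 and 2.75 FPKM in intact ones. Gibberellin-regulated protein 4 (evm_TU_ptg000003l_280), on the same contig, had 3.54, 2.12 and 1.86 FPKM in tattered hulls, against 0.867, 0.148 and 0 FPKM in intact hulls. It had 1.34, 1.08 and 2.77 FPKM in cracked hulls, against 0.0664, 0.0705 and 0.204 FPKM in intact ones. For all 3 genes no split library met an intact library of its cultivar at 133 d, a separation that 35.0% of all genes tested showed in tattered and 11.6% in cracked hulls. As gibberellin-regulated protein 4 was tested only through its split libraries, its separation adds no support.

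In tattered hulls the log2 fold changes were 2.71 for gibberellin-regulated protein 11 (SE 0.25, adjusted p = 8.36e-07), 2.51 for RSI-1 (SE 0.42, adjusted p = 0.000595) and 1.41 for gibberellin-regulated protein 4 (SE 0.26, adjusted p = 0.00149). Gibberellin-regulated protein 11 and RSI-1 were called in each alternative run. Gibberellin-regulated protein 4, with a mean of 0.876 FPKM, was not tested in the run that asked for a mean of at least 5 FPKM. Gibberellin-regulated protein 4 reached 1 FPKM in 6 libraries, all of them tattered or cracked, so it was tested only through the groups where it was high and its calls add no support. In cracked hulls they were 1.66 (SE 0.25, adjusted p = 0.000894), 2.44 (SE 0.42, adjusted p = 0.00266) and 1.25 (SE 0.26, adjusted p = 0.0148) for the same genes. With only the groups compared in the fit the cracked calls were lost (adjusted p = 0.186, 0.292 and 0.257). That fit called 4 of all 19716 genes tested. That of gibberellin-regulated protein 4 was also lost without replicate 2 of the intact group (1.22) or replicate 3 of the cracked group (0.99). The rise of gibberellin-regulated protein 11 was larger in tattered hulls by 1.06 (SE 0.35), with an adjusted p of 0.179.

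The summed level of the 3-ketoacyl-CoA synthase and ECERIFERUM genes was higher in tattered hulls as well. It was 249 to 313 FPKM there, against 170 to 209 FPKM in intact Golden Hills at 133 d. It was 151 to 184 FPKM in cracked hulls, against 126 to 180 FPKM in intact Lost Hills. Seed genes summed to 27.0 to 48.5 FPKM in tattered hulls, against 23.6 to 29.0 FPKM in intact hulls. In Lost Hills they summed to 31.8 to 107 FPKM in cracked hulls, against 33.1 to 51.2 FPKM in intact ones. The part of tissue composition in the GASA and metabolic changes was not tested. With age both the seed and the chlorophyll-binding genes were lower in both cultivars. In Golden Hills the seed genes summed to 23.6 to 29.0 FPKM at 133 d, against 55.5 to 99.6 FPKM at 91 d, and the chlorophyll-binding genes to 201 to 229 FPKM, against 324 to 501 FPKM. The Lost Hills sums were 33.1 to 51.2 FPKM at 133 d, against 50.8 to 116 FPKM at 91 d, for seed genes, with a slight overlap. For chlorophyll-binding genes they were 213 to 282 FPKM at 133 d, against 308 to 411 FPKM at 91 d.

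**Figure D5:**
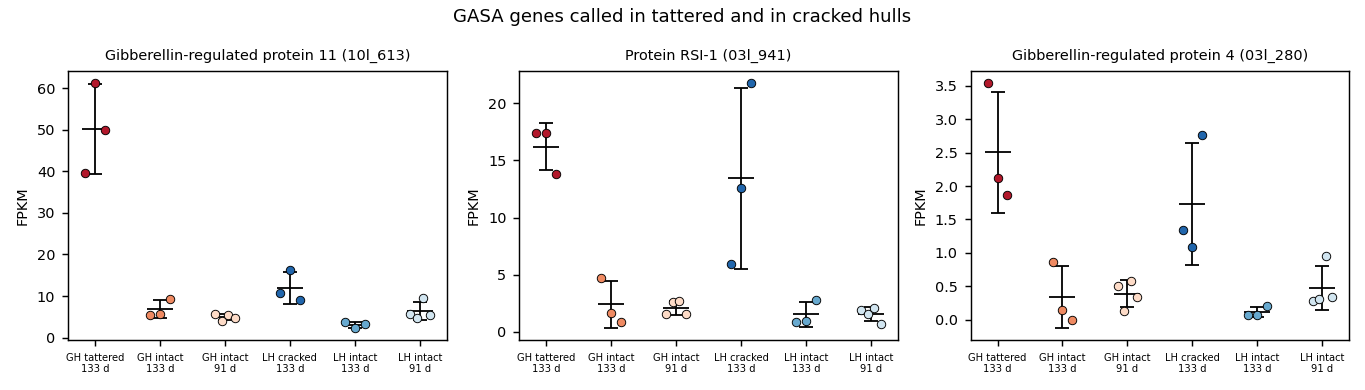
FPKM in each library (points) with the mean and SD of each group (bars) of the 3 GASA genes called in both split comparisons; GH is Golden Hills, LH Lost Hills. Tattered and cracked libraries lie above the intact libraries of their cultivar at 133 d in all 3 panels.

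Gibberellin-regulated protein 11 also fell with age in Lost Hills by 0.83 (SE 0.23, adjusted p = 0.0118), a call lost without replicate 2 of 133 d (-0.70). It was higher in intact Golden Hills than in intact Lost Hills at 133 d by 0.94 (SE 0.25, adjusted p = 0.0153), lost without replicate 3 of Golden Hills (0.73), without replicate 2 of Lost Hills (0.81) or with only the groups compared (adjusted p = 0.0556). The difference between its age effects was 1.21 (SE 0.33, adjusted p = 0.0546), and passed in 5 of the alternatives, one of them leaving out Lost Hills replicate 2 of 91 d (1.32, adjusted p = 0.0457). Gibberellin-regulated protein 9 (evm_TU_ptg000001l_3767) had 50.4, 24.9 and 31.2 FPKM in intact Golden Hills at 133 d, against 15.3, 22.2 and 18.0 FPKM in intact Lost Hills. Its log2 fold change of 0.86 (SE 0.28, adjusted p = 0.0407) was not called without replicate 1 (0.58) or 3 (0.92) of Golden Hills or replicate 1 (0.74) or 3 (0.85) of Lost Hills, nor with TPM (0.75, adjusted p = 0.0636). The call was also lost with only the groups compared, where evm_TU_ptg000024l_682 was the 1 gibberellin gene called higher, with 4.49% of all genes.

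Of 9 further genes of the pathway that the description rule did not take, 6 could be tested. In tattered hulls 3 of the 6 fell and 0 rose, where 7.35% of all genes fell and 9.29% rose. In cracked hulls limma called 0 of the 6, and 0 had an unadjusted p under 0.05. One tattered call was SPINDLY (evm_TU_ptg000011l_287), a sugar transferase that restrains gibberellin response in Arabidopsis, at 16.3 ± 1.99 FPKM in tattered and 20.5 ± 0.841 FPKM in intact hulls (SD, n = 3 each; log2 fold change -0.32, adjusted p = 0.0184). The others were a SCARECROW-LIKE 3 gene (evm_TU_ptg000008l_795; -0.57, adjusted p = 0.0226) and an ent-kaurene synthase gene (evm_TU_ptg000003l_1403; -0.71, adjusted p = 0.0475). The synthase call was lost without any one of the 6 libraries (-0.78 to -0.65), the SCARECROW-LIKE 3 call without any one of them but replicate 1 of the intact group (-0.58 to -0.56). That of SPINDLY was lost without replicate 3 of the intact (-0.29) or replicate 1 of the tattered group (-0.23), or with only the groups compared (adjusted p = 0.144).

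With age 2 of these 6 genes rose and 2 fell in Golden Hills, where 45.3% of all genes were called, and 1 rose and 1 fell in Lost Hills, where 31.7% were. The F-box gene GID2 (evm_TU_ptg000001l_2783), whose product hands DELLA proteins to degradation, rose in both cultivars. In Golden Hills it averaged 50.7 ± 5.57 FPKM at 133 d and 33.1 ± 5.96 FPKM at 91 d (log2 fold change 0.61, adjusted p = 0.000334). Its Lost Hills means were 42.8 ± 2.40 FPKM at 133 d and 30.6 ± 0.825 FPKM at 91 d (0.47, adjusted p = 0.00473; SD, n = 3 at 133 d and 4 at 91 d). The ent-kaurene synthase gene evm_TU_ptg000003l_1404 fell in both, by 1.33 (adjusted p = 3.67e-06) and by 0.74 (adjusted p = 0.00181). It acts just before ent-kaurene oxidase. It was also lower in intact Golden Hills than in intact Lost Hills at 133 d, at 2.36 ± 0.361 against 5.66 ± 1.05 FPKM (SD, n = 3 each; -0.98, adjusted p = 0.000693).

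The SCARECROW-LIKE 3 genes, GRAS-domain proteins that oppose DELLA proteins in Arabidopsis, moved apart with age in Golden Hills. The gene evm_TU_ptg000008l_795 rose by 0.80 (adjusted p = 0.000352) and was also higher than in Lost Hills at 133 d (0.60, adjusted p = 0.0169), a call lost without replicate 2 of Lost Hills (0.49, adjusted p = 0.0693) or with library totals (0.46, adjusted p = 0.0561). The gene evm_TU_ptg000005l_70 fell by 0.80 (adjusted p = 0.0132), not called without replicate 1 (-0.68) or 2 (-0.72) of 133 d. Among the 25 tested GRAS-domain genes outside the 57, 2 were called in tattered hulls (1 higher and 1 lower, with 16.6% of all genes called). In cracked hulls limma called 0 of the 25. At an unadjusted p under 0.05 there were 4 of them in cracked hulls, and 1730 of all 19716 genes tested. With age 6 rose and 8 fell in Golden Hills (23.2% and 22.1% of all genes), and 6 rose and 6 fell in Lost Hills (16.0% and 15.7%). In intact Golden Hills over intact Lost Hills at 133 d, 1 was higher and 6 were lower, with 8.88% and 7.91% of all genes. The groups did not overlap for 48.0% of the 25, against 33.7% of all genes.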

How the data were processed

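Whole-hull libraries of pistachio (20 libraries, 6 groups from the sample labels) had been made with dUTP in the second strand after poly-T selection, per the labels' protocols. The authors deposited FPKM values per gene and library with gene lengths and descriptions. The submitters' processing notes name HISAT2 2.0.5, StringTie 1.3.3b and featureCounts 1.5.0-p3; the genome build is not given in the sources used here. Multiplying the deposited FPKM by gene length gave whole reads for 100% of values (tolerance 0.01 of a read), with 16116971 to 18609861 per library (median 17244126). Intervals cover counting error only.

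One limma 3.58.1 fit (R 4.3.3; lmFit, contrasts.fit, eBayes with a trend) used log2(FPKM + 1), a pseudocount of 1, over genes that reached 1 FPKM in 3 or more libraries; 8 comparisons were tested two-sided, each with Benjamini-Hochberg adjustment. The procedure was tested on simulated data. Replicate pairs in each group differed by more than sampling noise, so no library was counted as a copy. Pathway and tissue lists came from words in the descriptions. Genes are named if they had one of the 6 highest means, the highest mean of a class, one of the 5 largest calls per direction and comparison (the higher group averaging 1 FPKM or more), or a call in an interaction; evm_TU_ptg000009l_2410 was named after its values were seen, as were genes cited as unexpressed or uncertain copies. Members and lists were chosen with earlier results of these data known. In no comparison did every same-numbered pair have a correlation of deviations above 0.1 (tattered and intact Golden Hills came nearest, with 0.22, 0.15 and 0.078), so the numbers were not taken as pairs. Alternatives were the pseudocount, the filters, TPM, quantile and library-total scaling, voom on recovered reads, no trend, only the groups compared, a replicate block on only those groups, and leaving out libraries.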

Additional observations from a re-analysis of the deposited data

Results flagged for a closer look

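Among 57 sets of 4 libraries at 91 d, 4 had 1 library above the other 3 by a gap that took up most of the range. The rule flags about 1 set in 20 for normally distributed values. Sets with few reads are not such values, so the number flagged is not set against that rate. For gibberellin-regulated protein 4 (evm_TU_ptg000003l_280) in Lost Hills, replicate 3 at 0.959 FPKM lay above 0.284, 0.313 and 0.333 FPKM, the gap being 0.928 of the whole range. For the DELLA gene RGL2 (evm_TU_ptg000022l_2433) in Golden Hills, replicate 1 at 0.915 FPKM lay above 0.547, 0.555 and 0.489 FPKM (0.844 of the range). For Snakin-1 (evm_TU_ptg000020l_719) in Golden Hills and GA3-oxidase (evm_TU_ptg000001l_1779) in Lost Hills the flagged library was the single one with a read (1 as a share of the range), replicate 1 at 0.122 FPKM and replicate 2 at 0.101 FPKM. Any set with a read in a single library gives that share, so these flags carry no weight.

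The age effects of the cultivars differed for 2 genes by limma's interaction term. Gibberellin-regulated protein 1 (evm_TU_ptg000024l_682) rose by 3.35 more on the log2 scale in Golden Hills than in Lost Hills (adjusted p = 0.0143), and Snakin-1 (evm_TU_ptg000020l_719) by 1.89 more (adjusted p = 0.0443).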

How the results depend on the processing

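Of 55 called values of the named genes, 26 were called in each of their alternatives, and of 964 recomputed values 825 stayed called, 139 did not, and 0 changed sign. Counts of called genes moved past 1.5 times their first value in these cases. Cracked over intact fell to 0 with only the groups compared, without and with the replicate block, where 4 and 0 of all 19716 genes were called. Golden Hills over Lost Hills at 133 d gave 6 with a mean of at least 5 FPKM (fewer genes tested), 3 with only the groups compared, 2 with those and the replicate block, and 5 to 8 with 1 library left out. Of all genes 3310 of 19716 were called in the main fit and 2315 of 13385 with the mean filter. With only the groups compared 1644 were called, with the block as well 765, and with 1 library left out 2121 to 3071. At 91 d Golden Hills over Lost Hills gave 1 by voom, 3 without replicate 2 of both groups, and 0 to 2 with 1 library left out. Of all genes 1006 were called in the main fit, and 982, 1116 and 617 to 1094 in those runs. The difference of split effects gave 1 without a filter, with 242 of all 27903 genes, against 196 of 19716 in the main fit. The difference of age effects gave 1 without a filter, with library totals and without both replicate 2 libraries, 0 by voom, and 1 to 3 with 1 library left out. Of all genes 649 were called in the main fit, 551 without a filter and 730 with library totals. Without both replicate 2 libraries 411 were called, by voom 473, and with 1 library left out 375 to 685. The cause was not tested. With 1 library left out the other counts ran from 6 to 9 (tattered), 2 to 4 (cracked), 15 to 18 (age, Golden Hills) and 12 to 14 (age, Lost Hills). Over all genes those runs called 1689 to 2777, 173 to 552, 7709 to 8814 and 4455 to 6021.

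Signs turned among values never called: gibberellin-regulated protein 12 in tattered hulls with quantile normalization (-0.035), and GA2-oxidase 1 with age in Lost Hills, from -0.26 without replicate 2 of 91 d (also -0.26 without both replicate 2 libraries) to 0.54. The replicate numbers were not taken as pairs. The replicate block, fitted on only the groups compared, gave 8, 15, 12 and 3 calls for tattered, age in Golden Hills, age in Lost Hills and the age difference. Of all 19716 genes it called 1537, 5858, 3827 and 412 there, against 3281, 8932, 6249 and 649 in the main fit. With the block 20 of the 55 calls were lost, against 16 with only the groups compared and no block. In the tattered comparison 5 of 6 libraries correlated best with their own number, a hint from the data and not the design, and in the cracked one 0 of 6. TPM shifted the median of all genes by -0.13 (tattered), -0.18 (age, Golden Hills), -0.11 (cultivars at 133 d), -0.10 (split difference) and -0.12 (age difference), and library totals by -0.16 (age, Golden Hills), -0.12 (cultivars at 133 d) and -0.11 (age difference). At the median gene length 1 FPKM rests on 15.4 to 19.9 reads per library, which limits genes of low expression.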
